A study of Mus musculus with 4 samples.

Results

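Heat shock genes encode the chaperones that help proteins fold in the cytosol and in mitochondria. Those described here were taken by symbol from a list of 10 genes: Hspa1a, Hspa1b, Hspa8, Hspb1, Hsph1, Hsp90aa1, Hsp90ab1, Dnajb1, Hspd1 and Hspe1. Of these, 9 were read by 22 probe sets (groups of short probes for one transcript) whose annotated symbol was exactly theirs, among 18193 named genes. Hsp90ab1 is not analysed here.

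The RNA came from the gastric corpus epithelium, the lining of the acid-secreting part of the stomach, of wild-type mice aged 6 weeks. The 4 groups were tamoxifen after 12 hours, tamoxifen after 2.5 days, tamoxifen after 4.5 days and vehicle at 2.5 days, with 1 Affymetrix array each, made from RNA of 3 mice pooled. Tamoxifen, a selective estrogen receptor modulator, was given into the peritoneum at 5 mg per 20 g of body weight in 10% ethanol and 90% sunflower seed oil, for 1 or 3 days, a length of treatment the labels tie to no single array. The strains named are C57BL/6, BALB/c and FVB/N, and no array is tied to one. With 1 array a group no spread between mice can be estimated, no test across samples is possible, and every difference below compares these pools. All comparisons with vehicle share its single array.

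Chaperones of the HSP70 family bind exposed hydrophobic stretches of a protein and release them in a cycle driven by ATP. J-domain partners deliver the protein, exchange factors reset the cycle, and HSP90 takes over late folding of kinases and steroid receptors, the estrogen receptor among them. When unfolded protein builds up, heat shock factor binds inverted repeats of the bases GAA, the heat shock element, in front of the inducible genes. In rat stomach the inducible HSP70 is known for its response to mucosal irritants. HSP60 and HSP10 form the barrel and the lid of the folding chamber of the mitochondrial matrix.

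Levels are log2 RMA values, and a difference of 1 is 2-fold. Levels were set against each other within a probe set only, since probes of different genes differ in brightness. As gauges of error, 18 hybridisation controls differed between tamoxifen arrays and vehicle with SDs of 0.08 to 0.10 around means of 0.04 at 12 hours, -0.13 at 2.5 days and -0.16 at 4.5 days. Centring on these controls would shift every difference at the later times upwards by that much. The closest pair of arrays, 4.5 against 2.5 days after tamoxifen, had a robust SD of 0.15 for the differences of expressed genes. The 3′ minus 5′ signal of Gapdh, a measure of RNA integrity, lay between 0.45 and 0.51 on all 4 arrays. Genes are called expressed where, of a comparison's arrays, the brighter read them no lower than its own median, as was the case for all 9 heat shock genes.

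The promoters of the genes with the widest differences, the inducible pair and the mitochondrial pair, are shown first. Each pair shares its upstream sequence in its own way, and any link between sequence and level was not tested. The sequences are from RefSeq, build GRCm38.p6, and capitals mark TTCNNGAA or GAANNTTC, the shortest form of the heat shock element. Hspa1a and Hspa1b are shown for the 160 bases before the start, at chr17:34972157-34972316 and chr17:34959239-34959398, both on the minus strand. The Hspe1 and Hspd1 entry is the whole 215 bases between the start of Hspe1 and a divergent start of Hspd1, at chr1:55087933-55088147 on the plus strand, the strand of Hspe1.
Hspa1a: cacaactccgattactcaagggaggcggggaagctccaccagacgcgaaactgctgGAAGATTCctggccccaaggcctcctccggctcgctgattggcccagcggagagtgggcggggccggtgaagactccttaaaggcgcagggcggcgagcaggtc
Hspa1b: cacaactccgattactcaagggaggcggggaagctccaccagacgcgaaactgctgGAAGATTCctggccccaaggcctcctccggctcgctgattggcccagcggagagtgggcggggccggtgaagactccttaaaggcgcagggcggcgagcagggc
Hspe1 and Hspd1: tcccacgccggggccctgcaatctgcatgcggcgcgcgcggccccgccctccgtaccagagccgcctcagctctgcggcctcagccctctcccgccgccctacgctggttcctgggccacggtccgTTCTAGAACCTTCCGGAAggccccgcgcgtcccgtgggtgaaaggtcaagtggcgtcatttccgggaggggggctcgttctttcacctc

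The stretches of Hspa1a and Hspa1b were identical at 159 of 160 bases, and their whole windows of 300 bases at 296. Each holds 1 match, GAAGATTC, at positions -104 to -97 from the start. Between Hspe1 and Hspd1 lie 3 overlapping matches in 1 run, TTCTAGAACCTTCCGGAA, which begins at position -89 from the start of Hspe1. The run therefore sits between the start of Hspe1 and the divergent start of Hspd1 used here, upstream of both. Hspb1 had 2 separate short matches before its start. A longer form of 3 repeats, in which TTCNNGAA is followed by NNTTC or GAANNTTC by NNGAA, was found in the windows of Hspe1, Hspd1 and Hsph1, in Hsph1 after the start, and in 0.603% of all 32851 promoter windows. The short form was in 15.1% of all windows, and as each of its motifs is its own reverse complement, both strands were searched at once. Dnajb1 had no match in either of its 2 windows, nor did the window of the other annotated start of Hspd1, which lies beyond the start of Hspe1. Promoters were matched for 7 of the 10 genes, without Hspa8, Hsp90aa1 and Hsp90ab1. A match is a description of these letters and not of binding.

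At 12 hours after tamoxifen the inducible HSP70 genes Hspa1a and Hspa1b stood 2.94-fold and 2.02-fold above vehicle, and the other 7 genes lay within 1.28-fold of it. After 2.5 and 4.5 days Hspa1a and Hspa1b were still 1.63-fold to 1.88-fold above vehicle. By then the mitochondrial genes Hspd1 and Hspe1, level with vehicle at 12 hours, were 1.73-fold to 1.95-fold above it. The constitutive HSP70 gene Hspa8 lay above vehicle by 1.42-fold and 1.36-fold at these later times. Hsp90aa1 was 1.28-fold to 1.34-fold above vehicle at every time, and Hsph1, Dnajb1 and Hspb1 lay between 0.864-fold and 1.30-fold of it. In such bulk RNA, fewer cells of a type and less RNA per cell cannot be told apart.

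Hspa1a, which encodes the stress-inducible cytosolic HSP70, had levels of 8.40, 7.62 and 7.75 on the 12-hour, 2.5-day and 4.5-day tamoxifen arrays, against 6.84 in vehicle. All 3 tamoxifen arrays were above vehicle, the 12-hour array furthest. The differences were 1.56, 0.77 and 0.91, and at 12 hours 54 of 12253 expressed genes differed by more. Between the 2.5-day and 12-hour arrays the difference was -0.78, and 98.9% of expressed genes had a higher one. Hspa1a is read by 1 probe set (1452388_at), so no second reading of it exists on these arrays.

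Hspa1b, the neighbouring copy that encodes nearly the same HSP70 protein, had levels of 11.19, 10.88 and 10.97 on the 12-hour, 2.5-day and 4.5-day tamoxifen arrays, against 10.17 in vehicle on its brightest probe set (1452318_a_at). The order of the arrays matched that of Hspa1a. Its 3 probe sets differed from vehicle by 1.02 to 1.33 at 12 hours, 0.71 to 1.09 at 2.5 days and 0.80 to 1.22 at 4.5 days. Hence all 3 passed 2-fold at 12 hours, whereas at the later times only the dimmest did. Centred on the hybridisation controls, the brightest gave 0.97 at 12 hours and 0.97 at 4.5 days, so its maximum at 12 hours rests on the scaling. One of the 3 carries the mark _x_at, meaning that some of its probes match other sequences too, and as the paralogs are nearly identical, signal of Hspa1a and Hspa1b may not be fully separate.

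**Figure D1:**
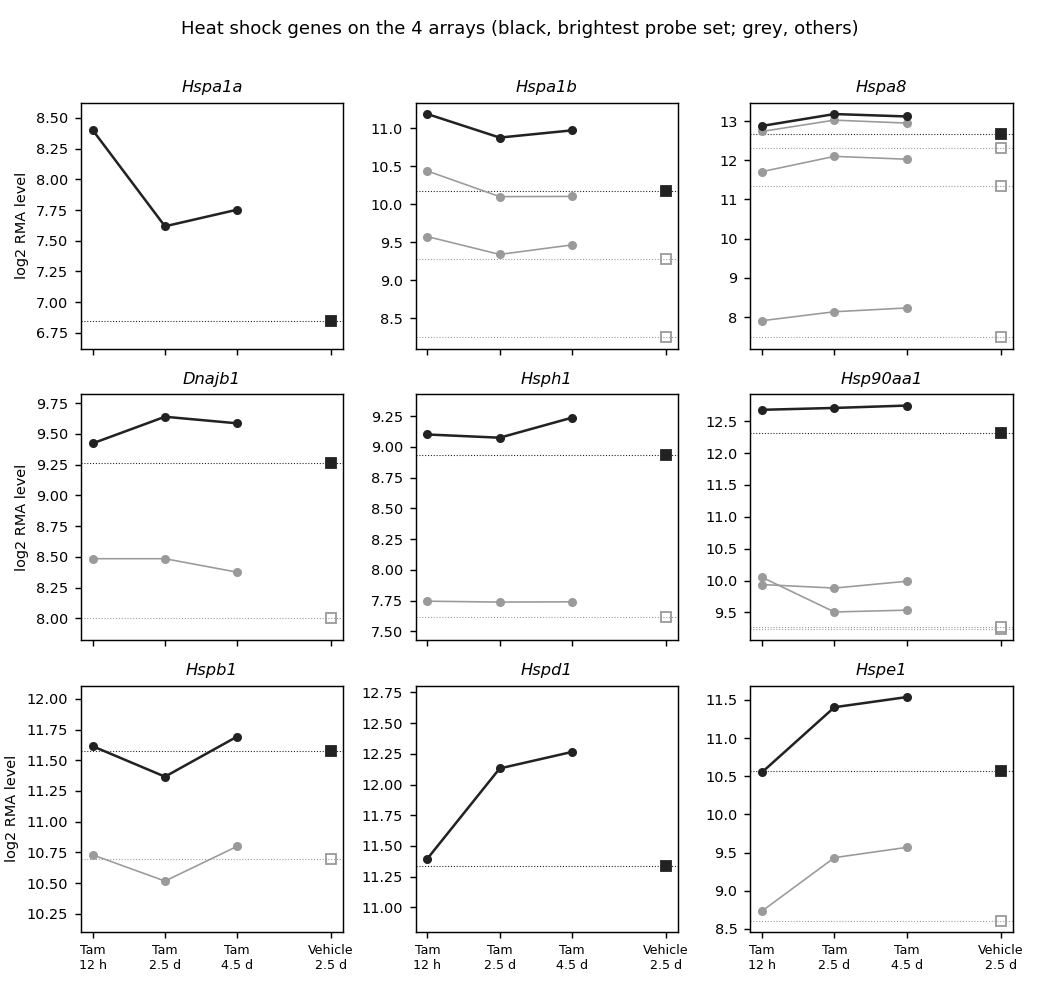
Level of each heat shock gene (log2 RMA, vertical axis, scaled per panel) on the 3 tamoxifen arrays (circles) and on the vehicle array (square, with a dotted line at its level); 1 point is 1 array of 3 pooled mice, so there are no error bars. Black is the brightest probe set of a gene and grey the others above the array medians. Hspa1a and Hspa1b are highest at 12 hours, which for Hspa1b rests on the scaling. In contrast, Hspd1 and Hspe1 are level with vehicle at 12 hours and above it at both later times.

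Hspa8 encodes the constitutive HSP70, the most abundant chaperone of this family in unstressed cells. Its brightest probe set (1455789_x_at) read 12.88, 13.18 and 13.12 on the 12-hour, 2.5-day and 4.5-day tamoxifen arrays, against 12.68 in vehicle. The level was thus highest at 2.5 days, not at 12 hours, and this order against 12 hours held on all 4 of its probe sets. The differences were 0.20 at 12 hours, 0.50 at 2.5 days and 0.44 at 4.5 days. The other 3 probe sets gave larger ones, from 0.37 to 0.43, 0.66 to 0.76 and 0.64 to 0.75 at these times. At 2.5 and 4.5 days the count of genes at least 1.5-fold higher would include Hspa8 by those probe sets and does not by the brightest. At 12 hours no probe set of Hspa8 passed 1.5-fold.

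Dnajb1, the J-domain partner that stimulates the ATPase of HSP70, read 9.42, 9.64 and 9.59 on the 12-hour, 2.5-day and 4.5-day tamoxifen arrays, against 9.27 in vehicle (1416755_at). Every tamoxifen array was above vehicle, by 0.16, 0.37 and 0.32. A second probe set gave 0.48 at 12 hours and 0.48 at 2.5 days, so the probe sets do not order these times the same way. Hsph1 encodes HSP110, an exchange factor of HSP70 that also holds unfolded proteins. Its levels were 9.10, 9.08 and 9.24 on the 12-hour, 2.5-day and 4.5-day tamoxifen arrays, against 8.93 in vehicle (1425993_a_at). Its differences were 0.17, 0.14 and 0.31, and the second probe set gave 0.12 to 0.13 at each time.

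Hsp90aa1, the inducible cytosolic HSP90, read 12.68, 12.71 and 12.75 on the 12-hour, 2.5-day and 4.5-day tamoxifen arrays, against 12.32 in vehicle (1438902_a_at). All tamoxifen arrays were above vehicle by nearly the same amount, 0.36, 0.39 and 0.43. Of its 5 probe sets 3 were above the array medians, and these disagreed on the time course. One (1426645_at) gave 0.70, 0.64 and 0.75, whereas another (1437497_a_at) gave 0.77 at 12 hours and then 0.23 and 0.26, an order like that of Hspa1a. The 2 dim probe sets lay between -0.20 and 0.26.

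Hspb1, a small heat shock protein that holds unfolded proteins without ATP, read 11.61, 11.37 and 11.69 on the 12-hour, 2.5-day and 4.5-day tamoxifen arrays, against 11.58 in vehicle (1422943_a_at). Its lowest level was at 2.5 days, 0.21 below vehicle, the only difference from vehicle at that time below 0 among the 9 genes. At 12 hours and 4.5 days it was 0.04 and 0.12 above vehicle, both less than the shift of the hybridisation controls, and -0.01 and 0.28 when centred on them. From 2.5 to 4.5 days it differed by 0.33, with 3.52% of expressed genes higher than that, and the second probe set gave 0.28.

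Hspd1 encodes HSP60, the barrel of the mitochondrial chaperonin. Its 1 probe set (1426351_at) read 11.40, 12.13 and 12.26 on the 12-hour, 2.5-day and 4.5-day tamoxifen arrays, against 11.34 in vehicle. The 12-hour array was within 0.06 of vehicle, and both later arrays were above it, by 0.79 and 0.93. Hspe1 encodes HSP10, the lid. Its brightest probe set (1450668_s_at) read 10.55, 11.40 and 11.54 on the 12-hour, 2.5-day and 4.5-day tamoxifen arrays, against 10.57 in vehicle. The differences were -0.02, 0.83 and 0.96, and the second probe set gave 0.13, 0.82 and 0.96. Over the 3 differences Hspe1 lay 0.09 log2 units from Hspd1 (Euclidean distance), and the next nearest heat shock gene, Hspa8, lay 0.58 from it. The starts of Hspe1 and Hspd1 face away from each other across the 215 bases printed above. The part of this in their likeness was not tested.

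**Figure D2:**
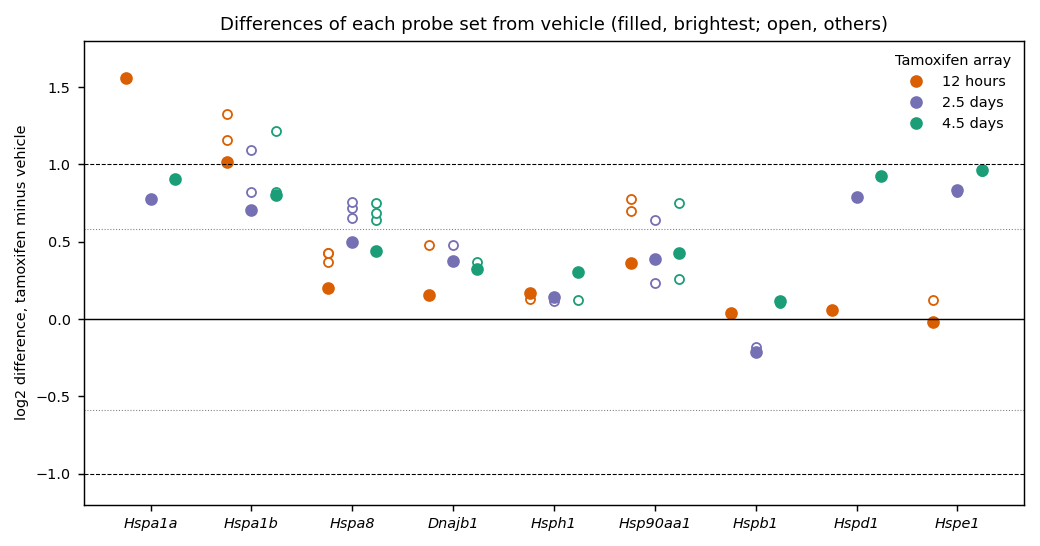
Difference from vehicle (log2, vertical axis) of every probe set above the array medians, for each heat shock gene and tamoxifen array; filled points are the brightest probe set and open points the others, and dashed and dotted lines mark 2-fold and 1.5-fold. At 12 hours Hspa1a and all probe sets of Hspa1b are past 2-fold, and at 2.5 and 4.5 days all probe sets of Hspa1a, Hspa1b, Hspd1 and Hspe1 are past 1.5-fold, as are 3 of 4 of Hspa8 and 1 of 3 of Hsp90aa1.

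At 12 hours, 2 of 9 heat shock genes were at least 2-fold above vehicle, where 0.996% of 12253 expressed genes were, and the same 2 were the ones past 1.5-fold, where the share of expressed genes was 3.37%. The count rests on the brightest probe set, and both of the other Hsp90aa1 probe sets above the medians passed 1.5-fold at 12 hours, at 0.70 and 0.77. None was 2-fold or 1.5-fold lower, with 1.92% and 5.66% of expressed genes that low. The median difference of the 9 was 0.17, with -0.04 over all expressed genes. With 9 genes and 1 array a side these shares describe the arrays and test nothing.

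At 2.5 days, the time of the vehicle pool, none of the 9 was at least 2-fold higher, with 3.32% of expressed genes so. Past 1.5-fold were 4 of 9, Hspa1a, Hspa1b, Hspd1 and Hspe1, against 9.69% of 12295 expressed genes. The median of the 9 was 0.50 and that of all expressed genes 0.02. None was 2-fold or 1.5-fold lower, as 1.94% and 6.03% of expressed genes were. At 4.5 days none passed 2-fold, where 3.8% of expressed genes did, and the same 4 passed 1.5-fold, where 10.7% did. The median was 0.44, with -0.01 over all expressed genes, and all 9 differences were above 0. As many as 2.72% of expressed genes were 2-fold lower and 8.21% were 1.5-fold lower. Centred on the hybridisation controls, 3 genes passed 2-fold at 4.5 days, Hspa1a at 1.07, Hspd1 at 1.09 and Hspe1 at 1.13, and at 12 hours Hspa1b no longer did.

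**Figure D3:**
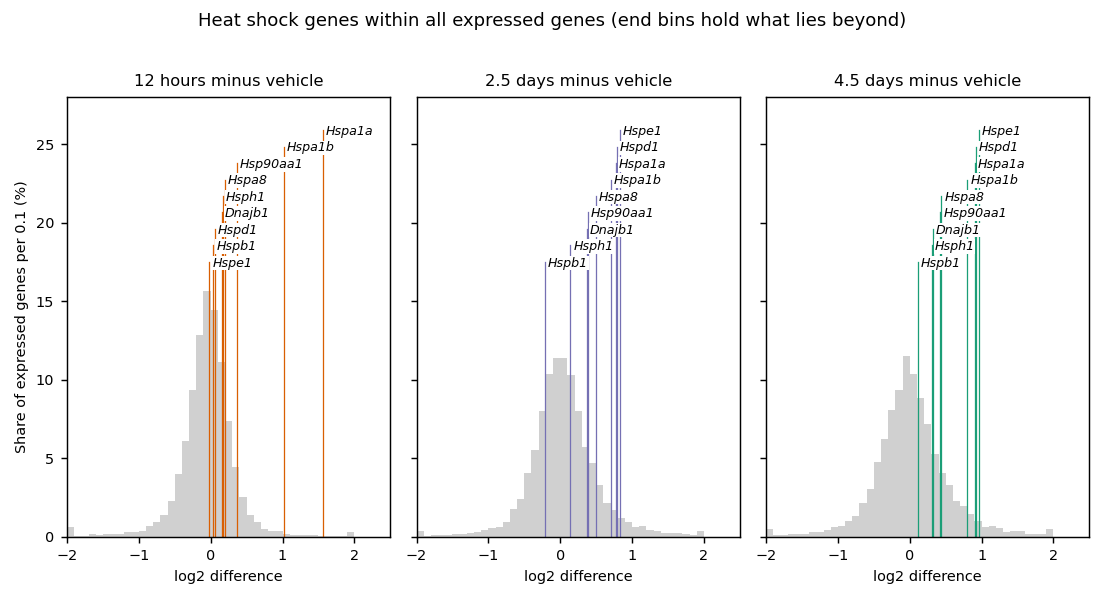
Differences from vehicle (log2, horizontal axis) of all expressed genes as grey bars (percent of genes per 0.1) on the 3 tamoxifen arrays, with a line for each heat shock gene. By the brightest probe sets, Hspa1a and Hspa1b stand apart from the other 7 at 12 hours. At 2.5 and 4.5 days 4 genes lie between 0.71 and 0.96 while Hspb1 is lowest.

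Between tamoxifen arrays, from 12 hours to 2.5 days, Hspd1 and Hspe1 were higher by 0.73 and 0.85, the 2 of 9 past 1.5-fold, where 7.52% of 12205 expressed genes were. Hspa1a was the 1 gene lower by 1.5-fold, with 2.28% of expressed genes so, and no member passed 2-fold upwards or downwards, where 2.58% and 0.655% did. From 2.5 to 4.5 days the differences of the 9 lay between -0.06 and 0.33, and none passed 1.5-fold. There 0.933% of expressed genes were 1.5-fold higher and 1.17% lower. These steps share the 2.5-day array.

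Among the other chaperone genes, those of the cytosolic chaperonin and of mitochondrial import were above vehicle throughout their lists at the later times. The lists were chosen from textbook knowledge with earlier results of these data known, and the counts are over expressed members at 12 hours, 2.5 and 4.5 days. They stand beside 3.37%, 9.69% and 10.7% of all expressed genes at least 1.5-fold higher at these times, and 5.66%, 6.03% and 8.21% lower. In lists this short, a count of 1 cannot be set apart from those shares. All 8 subunits of CCT, the cytosolic chaperonin that folds actin and tubulin, were above vehicle at each time, with medians of 0.17, 0.51 and 0.59. The lowest at 12 hours, 0.03, was less than the shift of the hybridisation controls. None passed 2-fold, and 0, 1 and 4 passed 1.5-fold. Cct8 was furthest, at 0.45, 0.90 and 0.91, and Cct4 was at 0.27, 0.57 and 0.69, with its 4 probe sets above the medians ranging from 0.23 to 0.57 at 2.5 days. Prefoldin, which hands unfolded actin and tubulin to CCT, had medians of 0.01, 0.33 and 0.32 over 6 subunits, 0, 1 and 1 of which passed 1.5-fold, with Pfdn4 at 0.02, 0.71 and 0.81.

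The 11 genes that import proteins into mitochondria had medians of -0.05, 0.57 and 0.52, and 0, 5 and 5 of them were past 1.5-fold higher. Tomm40, the pore of the outer membrane, was at -0.05, 0.57 and 0.83, and Timm9, a chaperone of the space between the membranes, at 0.28, 0.88 and 0.86. The receptor gene Tomm20 was at 0.29, 0.75 and 0.89, but its 6 probe sets ranged from -0.44 to 0.89 at 2.5 days. In contrast, the 13 other mitochondrial chaperones and proteases had medians of -0.08, 0.06 and 0.06, with none past 1.5-fold higher at any time. Hspa9, the HSP70 of the mitochondrial matrix, was at -0.18, 0.17 and 0.25. Hscb, a J-domain protein of iron-sulfur cluster assembly, was at 0.13, -0.39 and -0.62, and was the 1 of this list past 1.5-fold lower.

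Of 12 other HSP40 genes, 3 were past 1.5-fold higher at each of the later times and none at 12 hours. These were Dnaja1, a general partner of HSP70, at 0.27, 0.62 and 0.66 by its brightest probe set (named after its values were seen), the ribosome-associated Dnajc2 at 0.44, 0.84 and 0.90, and Dnajc9, a histone chaperone, at -0.07, 0.90 and 0.85. The 3 probe sets of Dnaja1 ranged from 0.15 to 0.62 at 2.5 days and from 0.10 to 0.66 at 4.5 days, so its call depends on the probe set. Dnaja4 was 2-fold lower at all times, at -1.17, -1.15 and -1.25, by its brightest probe set, while its 3 probe sets reached 0.00, -0.15 and -0.13. Among 8 genes of the HSP70 and HSP110 families, Hspa4 was at 0.24, 0.60 and 0.67 and Hspa14 at -0.17, 0.63 and 0.58. At 2.5 days the 4 probe sets of Hspa4 ranged from -0.10 to 0.60 and the 2 of Hspa14 above the medians from 0.16 to 0.63, so both calls depend on the probe set. Of the 7 expressed, 0, 2 and 1 were past 1.5-fold higher and 0, 1 and 1 lower. Hspa12a was at -0.34, -0.72 and -0.63, with no probe set above the median on all arrays.

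The HSP70 partners had medians of -0.02, 0.13 and 0.03 over 10 genes, with 0, 1 and 2 past 1.5-fold higher and none lower. Stip1, which joins HSP70 to HSP90, was at -0.01, 0.56 and 0.71, and Hspbp1, an exchange factor, at 0.25, 0.65 and 0.65. Bag3, another exchange factor, was at 0.03, 0.01 and 0.04 and was named after its values were seen. Hsf2, a heat shock factor, was at 0.12, 0.45 and 0.52, and Hsf1 is not analysed here.

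The 12 HSP90 co-chaperones had medians of 0.05, 0.14 and 0.15. At each time 1 gene was past 1.5-fold higher and none lower, where 3.37%, 9.69% and 10.7% of expressed genes were that much higher. That gene was Fkbp5 at 12 hours and 2.5 days, and Ahsa1 at 4.5 days. Fkbp5, a co-chaperone of steroid receptors and a known target of the glucocorticoid receptor, was at 0.99, 1.38 and 0.40. By the brightest probe sets it was the 1 gene of these chaperone lists past 2-fold higher, at 2.5 days. Its levels were 9.82, 10.21 and 9.23 on the 12-hour, 2.5-day and 4.5-day tamoxifen arrays, against 8.83 in vehicle. The 2 probe sets above the medians gave 0.82 and 1.38 at 2.5 days, so this call depends on the probe set. Timm8a1 of the import list reached 1.10 at 2.5 days and 1.12 at 4.5 days by a probe set other than its brightest. Ahsa1, which activates the ATPase of HSP90, was at 0.18, 0.57 and 0.66, but its second probe set gave -0.12, -0.08 and -0.06.

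Small heat shock genes other than Hspb1 had medians of -0.07, -0.36 and -0.50 over 5 expressed genes. Of these, 2, 2 and 1 were above vehicle at 12 hours, 2.5 and 4.5 days. At 12 hours 1 was past 1.5-fold higher (Hspb7) and at 4.5 days 1 was past it lower (Hspb6). Hspb6 and Cryab, both abundant in muscle, were at -0.44, -0.45 and -0.69 and at -0.07, -0.41 and -0.56. Hspb7, known from heart and muscle, was at 0.67, 0.43 and 0.06, and Hspb8 at 0.28, 0.10 and -0.18. Smooth muscle markers lay lower on the same arrays: all 9 were below vehicle at each time, with medians of -0.43, -0.77 and -0.69. Their log2 summed level was 14.92, 14.68 and 14.67 on the tamoxifen arrays and 15.29 on the vehicle array. The part of smooth muscle in the values of the small heat shock genes was not tested. The 8 ER chaperones had medians of -0.41, -0.14 and -0.04, the 4.5-day one smaller than the shift of the hybridisation controls, with Hspa5 (BiP) at -0.01, 0.35 and 0.40.

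**Figure D4:**
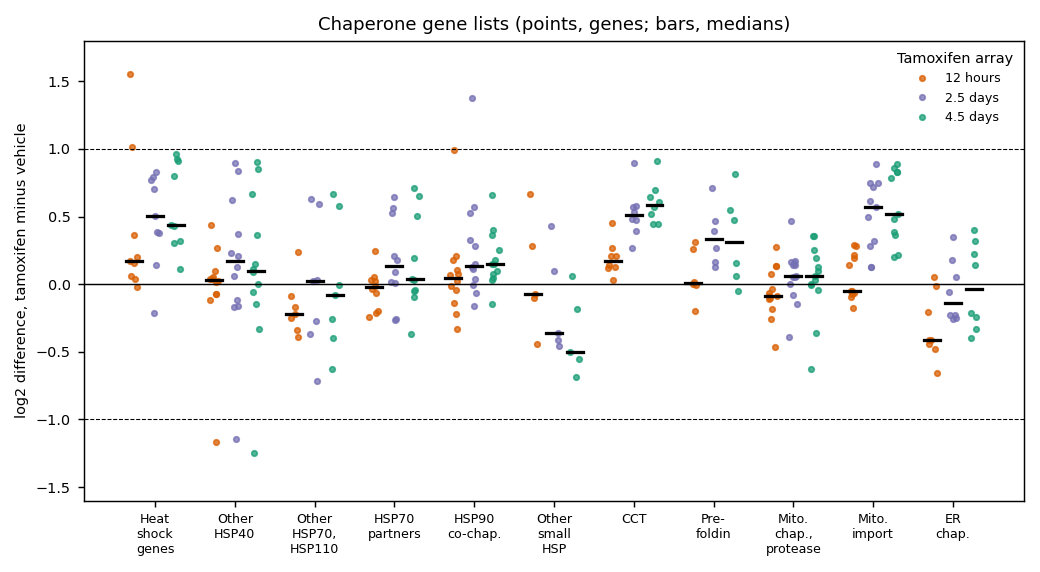
Difference from vehicle (log2, vertical axis) of the heat shock genes and 10 other chaperone lists on the 3 tamoxifen arrays; each point is 1 expressed gene by its brightest probe set, black bars are medians and dashed lines mark 2-fold. CCT and mitochondrial import genes are above vehicle at 2.5 and 4.5 days throughout, while the medians of other mitochondrial chaperones and proteases stay at 0.06.

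Several cell type and stimulus lists differed on these arrays too. Hspa1a and, on the scale as deposited, Hspa1b were highest on the 12-hour array. There all 8 pancreatic acinar markers were at least 2-fold above vehicle, with Cela2a at 9.32 and Cela1 at 1.89. Their log2 summed level was 15.60, 11.05 and 11.01 on the 12-hour, 2.5-day and 4.5-day tamoxifen arrays, against 11.40 in vehicle, where 5 of 8 (Cela2a, Ctrb1, Cpa1, Cpb1 and Gp2) were below the array median. At 2.5 and 4.5 days none was 1.5-fold above vehicle, while Hspa1a and Hspa1b were at 0.71 to 0.91. The squamous markers had a log2 summed level of 8.24, 12.38 and 12.53 on the 12-hour, 2.5-day and 4.5-day tamoxifen arrays, against 13.13 in vehicle. Of the 8 expressed at 12 hours all were at least 2-fold lower, with Krtdap at -7.15 and Krt4 at -6.15. The part of these tissues in the 12-hour values of the heat shock genes was not tested.

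Immediate early genes, which respond to growth signals, injury and tissue handling, had medians of 0.78, 0.57 and 0.64 at 12 hours, 2.5 and 4.5 days. Of 10, 7 were past 1.5-fold higher at 12 hours, 4 at 2.5 days and 5 at 4.5 days. The shares of all expressed genes were 3.37%, 9.69% and 10.7%. Fos stayed near vehicle, at -0.05, -0.06 and 0.20, and Jun was at 0.82, 0.07 and -0.25 by its brightest probe set. Egr1 was at 1.96, 1.88 and 1.53, and Atf3, which also responds to stress, at 1.48, 0.57 and 0.36. Atf3 therefore shared with Hspa1a a maximum at 12 hours, and Egr1 was nearly as high at 2.5 days. Circadian clock genes had medians of -0.13, 0.08 and -0.08 over 12 genes. Npas2, the furthest from vehicle, was at 0.40, -0.38 and -1.05. Dbp was at -0.68, 0.41 and 0.46, with no probe set above the median on all arrays. Cirbp, which is induced by cold, was at 0.12, 0.06 and -0.33. Vehicle was collected at 1 time only.

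Markers of cycling cells were at least 2-fold above vehicle for 7 of 7 at 2.5 and at 4.5 days, and for none at 12 hours, with medians of -0.31, 1.73 and 1.77. Their log2 summed level was 10.75, 12.61 and 12.57 on the 12-hour, 2.5-day and 4.5-day tamoxifen arrays, against 10.96 in vehicle, and none was below an array median. Mki67, the proliferation antigen, was at -0.70, 1.19 and 1.23. On the 2.5-day and 4.5-day arrays Hspd1 and Hspe1 were past 1.5-fold above vehicle. All 8 CCT genes were above vehicle there, but also on the 12-hour array, with a median of 0.17 at 12 hours. Macrophage markers had medians of 0.35, 1.03 and 0.86. Their log2 summed level was 12.00, 12.61 and 12.76 after tamoxifen, against 11.88 in vehicle. Lyz2 was at 0.07 at 12 hours and 1.38 at 4.5 days. In contrast, Csf1r was at -0.26, 0.02 and 0.27, and Adgre1 at -0.36, 0.04 and 0.20. The part of cycling cells and macrophages in the values of Hspd1 and Hspe1 was not tested.

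Markers of the corpus itself were present in vehicle, where Gkn2 of surface mucous cells was at 14.75, Atp4b of parietal cells at 14.19, Tff2 of mucous neck cells at 14.10 and Pgc of chief cells at 14.28. Parietal markers had medians of -1.31, -1.28 and -1.08, and chief cell markers of -0.21, -1.68 and -2.44. The surface mucous median stayed between 0.00 and 0.04, on genes near the top of the scale. All 8 parietal markers were below vehicle at each time, but by unlike amounts, from -2.85 to -0.10 at 12 hours. The 1 chief cell marker past 2-fold lower at 12 hours was Bhlha15, at -1.95. Whether the cells were fewer or the marker genes lower within them was not tested. The part of these marker differences in the heat shock values was not tested.

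**Figure D5:**
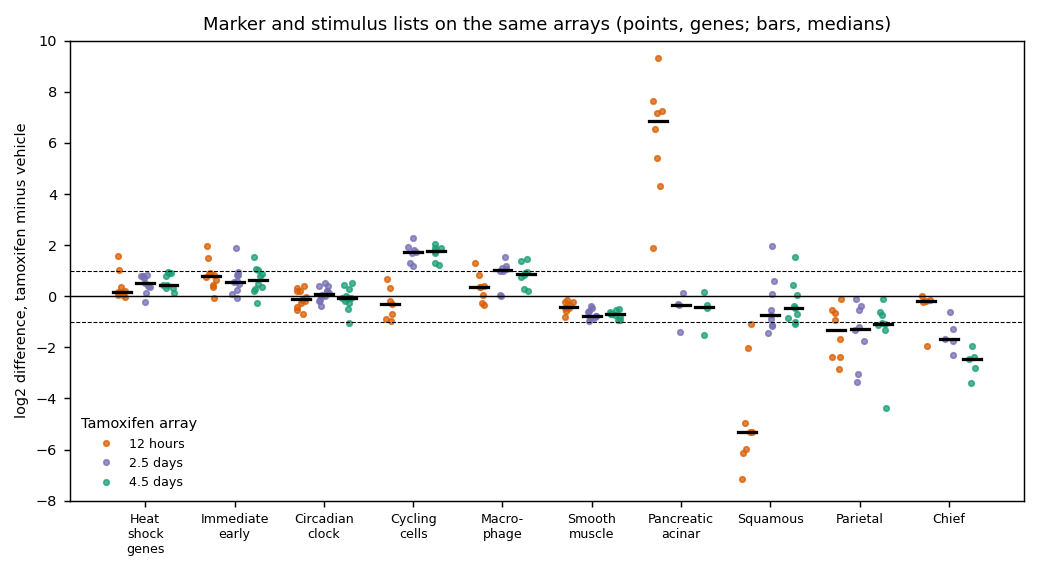
Difference from vehicle (log2, vertical axis) of the heat shock genes beside stimulus and cell type lists; each point is 1 expressed gene by its brightest probe set, bars are medians and dashed lines mark 2-fold. Acinar markers are far above and squamous markers far below vehicle at 12 hours, and cycling cell markers are above it at 2.5 and 4.5 days.

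By the 3 differences from vehicle, the 5 genes most like Hspa1b among 12015 other expressed genes were Ddx11, a DNA helicase, Itgal, a leukocyte integrin, Sh3bp2, an adaptor protein, Ccn1, a matrix protein, and Trib1, a pseudokinase. Their Euclidean distances ran from 0.07 to 0.18 log2 units, shorter than the 0.55 between Hspa1b and Hspa1a. The 5 most like Hspd1 were Ezh2, a histone methyltransferase, Wnt5a, a secreted signal, Ms4a7, a macrophage membrane protein, Dnajc22, a J-domain membrane protein, and Slc19a1, a folate carrier, at distances from 0.03 to 0.06. For Hspd1, Hspe1 lay at 0.09. Likeness over 3 differences that share the vehicle array is a description only.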

How the data were processed

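The authors deposited log2 values of 45101 probe sets on each of 4 arrays. Per the submitters' processing notes they used RMA in Partek; no source used here gives the version. This method gives all arrays the same distribution by quantiles, which hides any shift common to the majority of genes, and it compresses differences of very dim and very bright probe sets. That the logarithm has base 2 was taken from the range of values, 2.06 to 14.85. Probe sets were named through the platform annotation where it gave exactly 1 symbol, 64 controls left out, and the probe set with the highest mean stood for a gene. Differences are of log2 values (Python 3.11.15, pandas 2.3.3). The number of arrays limits the precision. The 2-fold rule was checked on simulated data. The members, the 14 pathway and 9 marker lists and the rule for named genes were chosen with earlier results of these data known. That rule took all members, from each pathway list up to 3 expressed genes with the largest absolute difference, any past 2-fold and Hsf1, Hsf2, Hspa9 and Hspa5, from each marker list the 2 brightest in vehicle and the furthest gene, and the 5 genes nearest to Hspa1b and to Hspd1; not all of these are described. Alternatives changed the choice of probe set, the scaling, the filter and the fold threshold.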

Additional observations from a re-analysis of the deposited data

How the results depend on the processing

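No paired analysis was possible because each group is 1 array, and no replicate could be left out. No direction of a difference of 1.5-fold or more reversed under any alternative run. Shifts by centring were smaller than 1.5-fold, and the filter and threshold runs left each difference as it was. Only another choice of probe set could thus have reversed one, in genes with more than 1 probe set. Of the values of single genes, 189 moved by less than 0.15, the robust SD of the closest pair, while 36 moved by more. Centring shifts all genes of a comparison alike and gave 45 (expressed genes) and 27 (hybridisation controls) of the 189. Hspa1a and Hspd1, with 1 probe set each, could not move with the choice of probe set. The 189 are thus no count of independent checks. Centred on the hybridisation controls, the count of genes at least 2-fold higher was 1 at 12 hours (2 as reported), 3 at 4.5 days (0 as reported) and 1 from 12 hours to 2.5 days (0 as reported), and the medians were 0.60 at 4.5 days and 0.20 for that step. At 1.5-fold the counts were 4 and 4 at 2.5 and 4.5 days, and 2 higher and 1 lower for that step. With the mean over all probe sets the medians were 0.32, 0.66 and 0.63 at 12 hours, 2.5 and 4.5 days. Taking for each gene the probe set whose absolute difference was the median one, they were 0.66 and 0.64 at the later times, and without _s_at and _x_at probe sets 0.71 and 0.69. Hspa8, whose brightest probe set gave the lowest difference from vehicle of its 4, had its differences from vehicle moved by each of these other choices of probe set. The filter at the 75th percentile changed no count or median of the heat shock genes. Leaving out the filter could change none, as all of them already passed it. Centring on the median of expressed genes moved no value by as much as 0.15.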
